A study of Drosophila melanogaster with 3 samples.

Results

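The regions described here are the CG34224-eGFP peaks whose summit lies in or beside a GAGA repeat, a run of alternating G and A. They were chosen by sequence alone, from the authors' conservative list of peaks on the Drosophila melanogaster assembly dm6. A peak was kept when the window from 50 bp before to 50 bp after its summit held, on either strand, at least 7 alternating G and A bases that start and end with G, and did not hold the full 8 bp DNA replication-related element (DRE), TATCGATA. This left 250 of the 4393 peaks on the assembled chromosomes (5.69%, 95% Wilson interval 5.04 to 6.42). A further 4 peaks held both sequences and were left out. The comparison sets were the 3518 peaks with neither sequence and the 625 peaks with a full DRE. Apart from the position of the summit, no measured value entered the choice within that list. The list itself holds only peaks that passed the authors' threshold for reproducibility.

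The study located the protein CG34224 on chromatin by chromatin immunoprecipitation and sequencing (ChIP-seq). Flies of 1 transgenic strain, CG34224-GFP, carried CG34224 fused to eGFP, and an anti-GFP antibody precipitated the fusion from whole embryos aged 0 to 24 hours. Each library therefore mixes every embryonic tissue and stage, and what promoter drives the fusion is not given in the sources used here. All 3 libraries are labelled as biological replicates 1, 2 and 3 of the same group, so the comparisons below set GAGA-repeat peaks against other peaks of the same libraries.

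GA repeats in flies are bound by GAGA factor, the product of Trithorax-like (Trl), which helps to clear nucleosomes from promoters and enhancers, and also by the factors CLAMP and Pipsqueak. GAGA factor is known from heat shock, Hox and other developmentally regulated genes, where polymerase often pauses just after initiation, and from Polycomb response elements. The DRE belongs to another class of promoter, that of broadly active housekeeping genes, and is bound by the factor DREF.

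The windows of 8 GAGA-repeat peaks are printed to show where the repeat stands in the strongest promoter peaks, in strong distal ones and where the run is longest. All are read from the dm6 plus strand, reach 50 bp to either side of the summit, and show every alternating run of at least 7 bases in capitals, which reads as C and T where the repeat is on the minus strand. The first 3 come from promoters: mnb at chrX:17887281-17887381, kug at chr3L:20006341-20006441 and Mob2 at chr3L:11553404-11553504. The kay window, chr3R:29774623-29774723, lies at the start of lncRNA:CR46110 inside the kay locus. Those named Ubx (chr3R:16702973-16703073) and rdx (chr3R:14017810-14017910) are in introns, far from every start site. Pdk1 (chr3L:131387-131487) and Cad86C (chr3R:10826890-10826990) show promoter peaks with runs of 29 bases.
mnb: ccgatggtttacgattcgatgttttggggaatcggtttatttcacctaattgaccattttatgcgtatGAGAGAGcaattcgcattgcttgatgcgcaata
kug: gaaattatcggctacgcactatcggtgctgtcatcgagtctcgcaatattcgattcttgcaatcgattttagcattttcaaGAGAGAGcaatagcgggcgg
Mob2: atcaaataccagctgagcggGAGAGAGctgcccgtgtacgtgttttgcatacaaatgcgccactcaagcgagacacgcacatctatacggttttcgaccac
kay: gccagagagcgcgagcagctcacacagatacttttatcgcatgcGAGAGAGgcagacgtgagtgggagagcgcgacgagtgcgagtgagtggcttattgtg
Ubx: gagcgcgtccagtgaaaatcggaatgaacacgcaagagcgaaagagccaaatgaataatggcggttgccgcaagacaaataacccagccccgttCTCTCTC
rdx: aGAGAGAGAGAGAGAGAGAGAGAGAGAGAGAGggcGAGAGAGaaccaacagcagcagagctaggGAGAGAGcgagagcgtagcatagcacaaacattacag
Pdk1: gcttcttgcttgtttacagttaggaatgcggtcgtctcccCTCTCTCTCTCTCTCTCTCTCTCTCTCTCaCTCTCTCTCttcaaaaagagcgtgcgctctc
Cad86C: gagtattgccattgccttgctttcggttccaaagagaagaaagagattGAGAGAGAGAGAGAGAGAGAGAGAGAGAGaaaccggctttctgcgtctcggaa

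Most repeats were short. Exactly 7 alternating bases were the longest run in 151 of the 250 windows (60.4%), as in mnb, while 99 windows held 9 or more, 33 held 15 or more, and the longest run, at rdx, had 31. More than 1 run stood in 60 windows (24%). The window bounds how far a run can lie from the summit, and within it the distance from summit to run centre was 21 bp in the mnb window and 47 bp in the distal Ubx window.

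The repeat was more frequent at summits than in windows 500 bp to either side, and the excess was largest at distal peaks, those with no annotated start site within 500 bp of the summit. Counting peaks with or without a DRE, the repeat stood in 89 of 614 distal windows (14.5%, Wilson 11.9 to 17.5) and in 1.63% of their flanks. At promoter peaks it stood in 165 of 3779 windows (4.37%, Wilson 3.76 to 5.07) and in 1.60% of flanks. By comparison, 1.54% of all 19275 windows of the same length centred on annotated start sites held it. The ratio of summit to flank was thus 8.90 at distal peaks and 2.73 at promoter peaks. Each replicate's own list gave the same order. In distal windows the repeat reached 16.5% in replicate 1, 14.6% in replicate 2 and 13.8% in replicate 3, and in promoter windows 3.55%, 3.51% and 4.40%. These intervals cover counting error only.

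The excess of the repeat was also spread wider around the summit than that of the DRE. At distal peaks, the share of peaks with the repeat in a 20 bp bin was 4.89 times the level far from the summit in the central bin, 7.79 times at 20 to 40 bp, 6.06 times at 60 to 100 bp and still 3.88 times at 120 to 200 bp. At promoter peaks the same ratios for the repeat were 4.03, 3.31, 3.58 and 2.12. For the full DRE at promoter peaks they were 25.9, 23.8, 8.09 and 3.40, with the largest drop between 23.8 and 8.09. No test was run on these profiles.

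**Figure D1:**
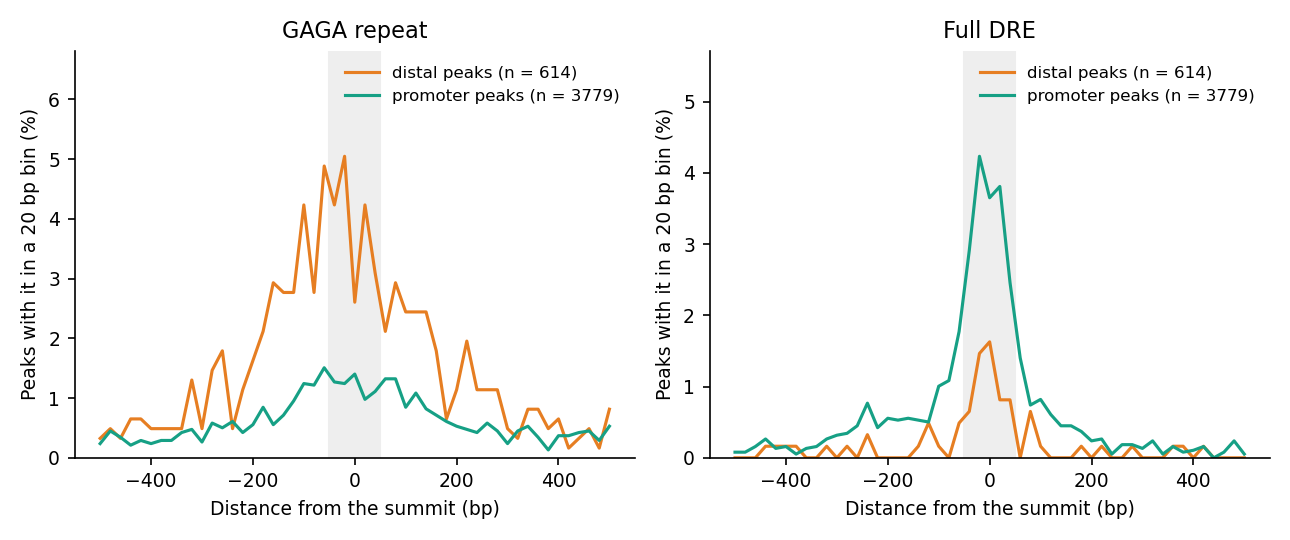
Share of conservative peaks with the GAGA repeat (left) or the full DRE (right) in 20 bp bins, against distance from the summit in bp, for distal and promoter peaks; the shaded band is the window at the summit, 50 bp to either side. The GAGA repeat forms a broad rise at distal peaks, 3.88 times the far level at 120 to 200 bp, whereas the DRE forms a narrow one at promoter peaks.

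GAGA-repeat peaks lay at promoters less often than other peaks in every list. In the conservative list 161 of 250 (64.4%, Wilson 58.3 to 70.1) had a start site within 500 bp, against 86.0% of all conservative peaks, 3024 of 3518 peaks with neither sequence and 594 of 625 DRE peaks. In the replicate lists, which held 124, 124 and 233 GAGA-repeat peaks, the promoter share was 67.7%, 71.0% and 65.7% in replicates 1, 2 and 3 (68.1 ± 2.67, SD, n = 3), against 91.0%, 91.2% and 86.0% for peaks with neither sequence (89.4 ± 2.97). The ranges did not overlap. The difference was −21.3 ± 1.71 percentage points (SD over the 3 lists; exact sign-flip permutation over replicates, two-sided, p = 0.25). With 3 replicates 0.25 is the smallest p this test can give, so neither this nor any later comparison over replicates could reach a conventional threshold. Each difference is therefore read against its own SD over the lists.

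Of the 89 distal GAGA-repeat peaks, the summit lay in an intron in 63, between genes in 18 and in an exon in 8. Introns held most distal peaks of either kind, with 70.8% (Wilson 60.6 to 79.2) of distal GAGA-repeat peaks and 61.9% (57.6 to 66.1) of distal peaks with neither sequence. In replicates 1, 2 and 3 these shares were 62.5%, 69.4% and 70.0% for GAGA-repeat peaks, against 58.6%, 57.6% and 57.5%. Of all 377 distal intronic peaks of the conservative list, 16.7% (Wilson 13.3 to 20.8) held the repeat without a DRE, and of all 155 distal intergenic ones 11.6% (7.47 to 17.6). Among the 161 promoter peaks, the summit itself was in an intron in 62, between genes in 52, in a 5′ UTR in 36, in a non-coding exon in 8, in a coding exon in 2 and in a 3′ UTR in 1. An intronic summit near a start site lies in an intron of some transcript of the same or an overlapping gene.

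**Figure D2:**
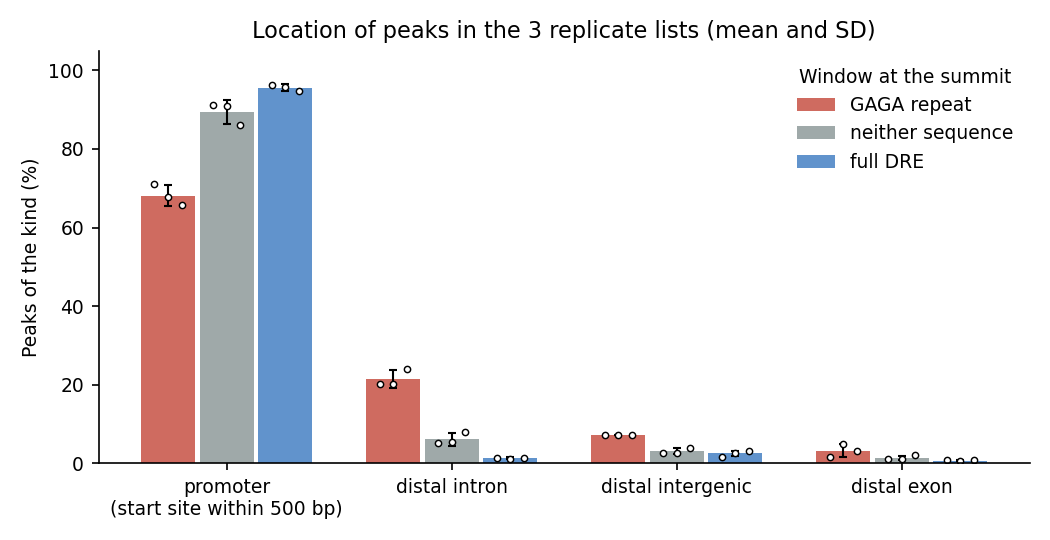
Share of peaks (%) by location for peaks with the GAGA repeat, neither sequence or the full DRE; bars are means over the 3 replicate lists, error bars SD, points single replicates. The GAGA-repeat bar is the lowest at promoters, 68.1%, and the highest in distal introns.

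Promoters with a GAGA-repeat peak were mainly those of single protein-coding genes read in 1 direction. The nearest start site was protein-coding for 146 of the 161 promoter peaks, and belonged to a non-coding RNA of the annotation's ncRNA class for 12, to a tRNA for 2 and to a snoRNA for 1. A protein-coding start site lay within 500 bp for 149. Of these, 10 (6.71%, Wilson 3.69 to 11.9) also had a protein-coding start site on the opposite strand within 500 bp, a divergent promoter, against 980 of 2884 peaks with neither sequence (34.0%) and 37.6% of DRE peaks. In replicates 1, 2 and 3 the divergent share was 6.49%, 4.82% and 4.86% for GAGA-repeat peaks, against 37.2%, 39.1% and 33.4% for peaks with neither. The difference was −31.2 ± 2.90 points (SD, n = 3; exact sign-flip permutation, two-sided, p = 0.25). With a distance of 1000 bp the shares were 13.6% for GAGA-repeat peaks and 42.3% for peaks with neither sequence.

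The summits at these promoters stood further upstream. Relative to the nearest protein-coding start site, the median summit of GAGA-repeat peaks was at −84 bp (interquartile range −141 to −12), against −30 bp for peaks with neither sequence and −32 bp for DRE peaks. The medians in replicates 1, 2 and 3 were −89, −91 and −89 bp for GAGA-repeat peaks and −34, −36 and −26 bp for peaks with neither sequence, a difference of −57.7 ± 4.62 bp (SD, n = 3; exact sign-flip permutation, two-sided, p = 0.25). The summit was upstream of the start site in 84.4 ± 3.19% of GAGA-repeat peaks and 65.9 ± 3.39% of peaks with neither. DRE peaks were close to the GAGA-repeat peaks in this share, at 80.8 ± 1.42%, and in the conservative list the shares were 79.9% for GAGA-repeat peaks and 81.9% for DRE peaks. The repeat stood on the upstream side of the summit in 73 of 149. The G and A strand was the coding strand of the gene in 89 of 149 in the conservative list, but in 46.8%, 47.0% and 52.1% in the 3 replicate lists.

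**Figure D3:**
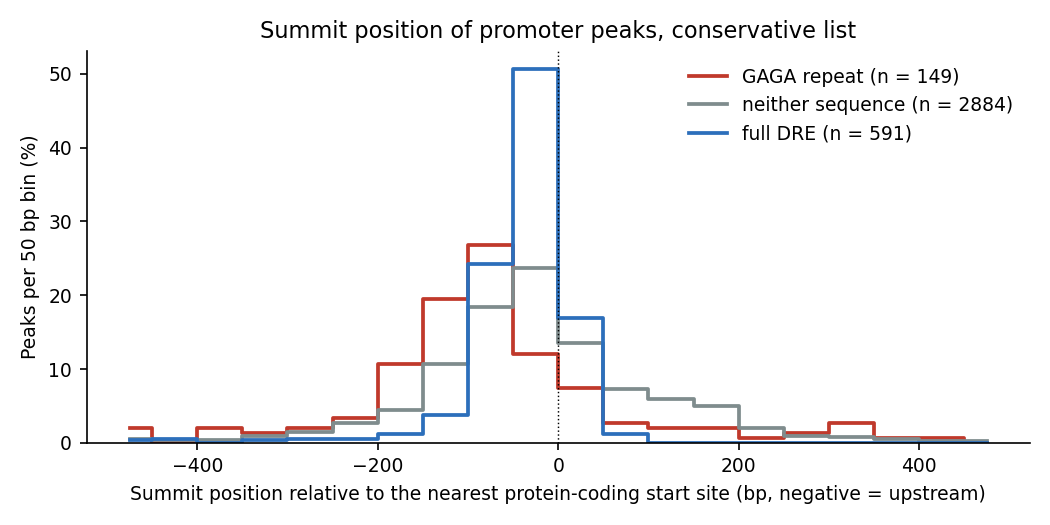
Position of the summit relative to the nearest protein-coding start site (bp, negative is upstream) for promoter peaks of the conservative list, as percent of peaks per 50 bp bin. The GAGA-repeat line has its centre upstream, with a median of −84 bp, while the DRE line is narrow with a median of −32 bp.

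The genes nearest to these promoter peaks were long and had several start sites. The median gene length was 16446 bp for GAGA-repeat peaks, against 3750.5 bp for peaks with neither sequence and 2881 bp for DRE peaks. In replicates 1, 2 and 3 it was 23313, 18465 and 14742.5 bp, against 3428, 3247 and 3830 bp for peaks with neither. More than 1 start site was annotated for 73.1 ± 2.13% of the genes at GAGA-repeat peaks and 44.1 ± 2.21% of those at peaks with neither sequence (difference 29.0 ± 2.15 points, n = 3, exact sign-flip permutation, two-sided, p = 0.25). A gene with more start sites has more places where a promoter peak can be counted, and the part of this in the gene lengths was not tested.

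The strongest GAGA-repeat peak was at mnb, which encodes the minibrain kinase. Its signal, the authors' value per peak in units that were not stated, was 958 in the conservative list, 79th by rank, and it ranked 90th, 80th and 85th in replicates 1, 2 and 3. Next came Mapmodulin at 777, PRL-1, a phosphatase gene, at 771, kug, which encodes the atypical cadherin Fat2, at 750, and Mob2, for a kinase regulator, at 698. Roe1, for a mitochondrial co-chaperone, followed at 592, and shot, for the spectraplakin that links actin and microtubules, at 566. The remaining promoter peaks among the 15 strongest were ush, a GATA cofactor gene, at 531, the lncRNA start within kay, the fly Fos gene, at 480, cpo at 436, GstE12 at 418, the integrin gene scb at 405 and fng, whose product modifies Notch, at 388. All 15 were found in all 3 replicate lists.

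The 15 also included a pair of distal peaks at loci where GAGA factor is known to act. The peak in a Ubx intron, 31403 bp downstream of the nearest Ubx start, had a signal of 384 and ranked 1784th, 1388th and 834th in the 3 replicates. The other lay 18685 bp downstream of the start of Su(z)2, a Polycomb group gene, with a signal of 375. Further strong distal peaks had rdx, Prps, Mef2, Rho1, Trl and CG11629 as nearest genes, with signals of 343, 334, 331, 302, 300 and 293. All of these were found in all 3 lists except Mef2, the muscle transcription factor gene, which was missing from replicate 2.

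As a set, GAGA-repeat peaks were of middling signal. Their median in the conservative list was 195 (interquartile range 155 to 240, lowest 29.8), against 210 for peaks with neither sequence and 405 for DRE peaks. Within the replicate lists, their median percentile of signal was 33.1, 28.0 and 42.7 in replicates 1, 2 and 3, against 46.0, 46.2 and 45.2 for peaks with neither sequence. The difference was negative in every list but varied widely, at −11.2 ± 7.96 percentile points (range −18.1 to −2.51; exact sign-flip permutation, two-sided, p = 0.25). It lay among promoter peaks, at −12.2 ± 7.86, while among distal peaks it was 1.23 ± 5.34 with mixed signs (p = 1 by the same exact test). Without replicate 2 the difference over all peaks was −7.70 points. In the 3 other series lists, each a single list, it was −2.75, −5.96 and −9.37. The medians in the conservative list, also a single one, were 39.8 and 45.0. In the upper 50% by signal of the replicate lists the difference was −21.9, with percentiles taken anew within that part. When the conservative list was split by signal into 4 classes of like size, weakest first, GAGA-repeat peaks numbered 66, 108, 63 and 13, or 6.01%, 9.84%, 5.74% and 1.18% of each class.

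Most also had the commonest width of their list, though not the strongest ones. In the conservative list 229 of the 250 (91.6%) had the commonest width of that list, 536 bp, against 70.2% of peaks with neither sequence and 30.2% of DRE peaks. The 13 GAGA-repeat peaks of the strongest signal class all had other widths, such as 459 bp at mnb and 282 bp at fng. The kinds were not compared at like signal, so the part of signal in this difference was not tested. In replicates 1, 2 and 3, whose commonest widths were 410, 440 and 470 bp, the share was 96.0%, 91.9% and 94.8% for GAGA-repeat peaks, against 76.3%, 68.0% and 79.1% for peaks with neither. The difference was 19.8 ± 4.09 points (SD, n = 3; exact sign-flip permutation, two-sided, p = 0.25).

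GAGA-repeat peaks were recovered in all 3 replicate lists less often than peaks at large. A conservative peak counted as recovered when a thresholded peak of the replicate overlapped it by at least 50% of the shorter one. All 3 lists held 63 of the 250 (25.2%, Wilson 20.2 to 30.9), against 47.3% of all conservative peaks, 43.3% of peaks with neither sequence and 78.6% of DRE peaks. Another 69 (27.6%) were in 2 lists, 71 (28.4%) in 1 list and 47 (18.8%) in none, against 18.3%, 20.6% and 13.8% of all conservative peaks. Replicate by replicate, 41.2%, 42.4% and 75.6% were recovered in replicates 1, 2 and 3, against 53.4%, 58.6% and 77.6% of peaks with neither sequence, a difference of −10.1 ± 7.32 points (SD, n = 3; exact sign-flip permutation, two-sided, p = 0.25). The lists of replicates 1, 2 and 3 held 2667, 2844 and 4146 peaks. With replicate 1 or replicate 2 left out, 38.8% of GAGA-repeat peaks were in both remaining lists.

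Most of the single recoveries came from replicate 3, which has the longest list. It alone held 58 GAGA-repeat peaks, while replicate 1 alone held 5 and replicate 2 alone held 8. Replicates 1 and 3 without 2 shared 34, replicates 2 and 3 without 1 also shared 34, and replicates 1 and 2 without 3 shared 1. These patterns were not counted for other peaks, so whether they are particular to GAGA-repeat peaks is not known. The deposited ranked lists, which reach below the threshold, held nearly all of the missing peaks: 138 of 147 not found in replicate 1, 139 of 144 in replicate 2 and 57 of 61 in replicate 3. These lists are long, with 40072, 31402 and 57331 peaks, of which 37301, 28470 and 53038 scored below 830. How often a region outside the peaks would overlap them was not tested. The shares, 93.9%, 96.5% and 93.4%, were close to the 93.0%, 94.1% and 93.2% of missing peaks with neither sequence. Median scores there were 253, 508 and 558 for GAGA-repeat peaks and 338, 474 and 533 for peaks with neither, where the lowest thresholded score was 830. Of the 47 in no thresholded list, 39 were in all 3 ranked lists. The strongest of the 47 were near tio, sesB, Ppa, Root and ct, with signals of 241, 230, 213, 192 and 189.

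Recovery of GAGA-repeat peaks rose with signal. From the weakest to the strongest of the 4 signal classes, 3 of 66, 15 of 108, 32 of 63 and 13 of 13 GAGA-repeat peaks were in all 3 lists, or 4.55%, 13.9%, 50.8% and 100%. Among peaks with neither sequence the shares were 15.6%, 13.7%, 60.6% and 97.3%. In the weakest class the Wilson intervals ran from 1.56 to 12.5% for GAGA-repeat peaks and from 13.5 to 18.0% for the others. These intervals cover counting error only and are no test between the kinds. In that class, peaks with neither sequence found in all 3 lists had a median percentile of 5.46, against 13.5 for those found in none. Recovery there did not follow the peak's own signal. A replicate peak that overlaps can have its summit elsewhere, and its part in this was not tested. Recovery also went with location. At promoters 28.6% of GAGA-repeat peaks and 47.4% of peaks with neither sequence were in all 3 lists, while among distal peaks the shares were 19.1% and 18.0%. Per replicate, distal GAGA-repeat peaks were recovered at 32.6%, 37.1% and 66.3%, against 27.9%, 31.2% and 56.9% of distal peaks with neither. This difference, 6.65 ± 2.47 points, was opposite in sign to that over all peaks and positive in all 3 replicates (exact sign-flip permutation, two-sided, p = 0.25).

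**Figure D4:**
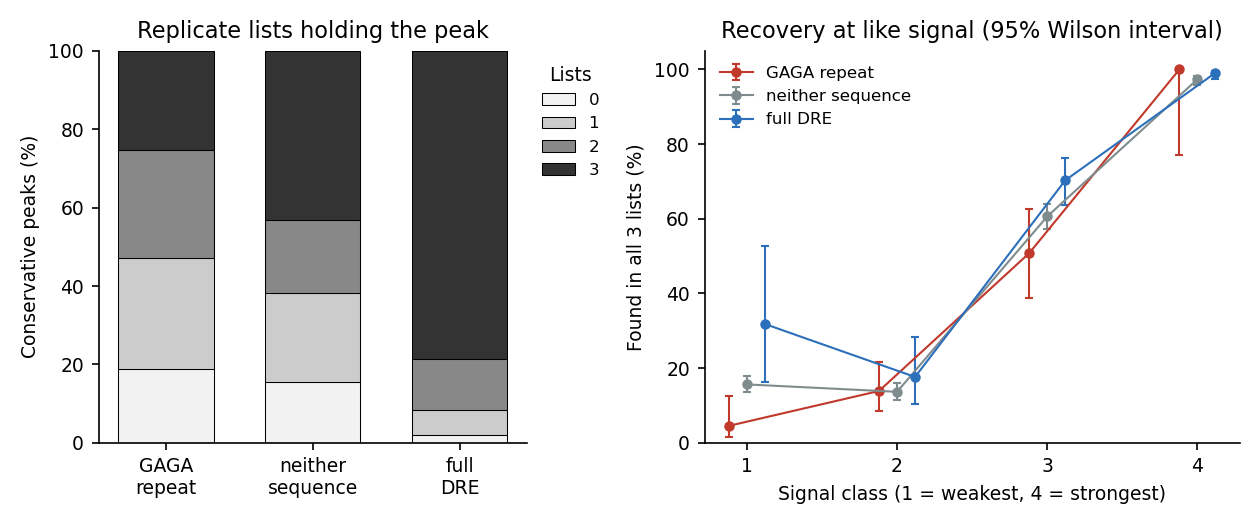
Left, conservative peaks of each kind (%) by the number of replicate lists that held them; right, share found in all 3 lists by signal class, with 95% Wilson intervals. The GAGA-repeat column has 25.2% in all 3 lists and the DRE column 78.6%, and the GAGA-repeat share found in all 3 climbs from 4.55% in the weakest to 100% in the strongest signal class.

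The summit of a recovered peak moved a little between lists, and with it the repeat could leave the window. Of the GAGA-repeat peaks recovered in replicates 1, 2 and 3, 71 of 103, 73 of 106 and 142 of 189 again held the repeat and no DRE at the replicate's own summit (68.9%, 68.9% and 75.1%). For DRE peaks the DRE was again in the window in 87.5%, 83.5% and 84.95%. The median shift between summits was 27, 26 and 19 bp for GAGA-repeat peaks, against 12, 12 and 9 bp for DRE peaks.

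Peaks with longer runs lay less often at promoters. The promoter share was 67.5% for the 151 peaks with a run of 7, 62.1% for the 66 with 9 to 13 and 54.5% for the 33 with 15 or more. At protein-coding starts, with 93, 39 and 17 such peaks, their summits had medians of −78, −101 and −95 bp, and the genes at those promoters had median lengths of 14025, 17636 and 21952 bp. Just outside the rule, peaks whose longest run was 5 bases had a promoter share of 76.6%, a median summit at −57 bp and a median gene length of 7144 bp, and the 210 peaks with the repeat only outside the window, within 100 bp of the summit, had 73.3%, −73 bp and 9755 bp. Peaks with runs of 3 or less gave 87.5%, −27 bp and 3505 bp. Signal showed no such order, with median percentiles of 41.5, 34.2 and 41.9 for runs of 7, 9 to 13 and 15 or more. These classes were not tested against each other.

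Several other promoter elements were less frequent in windows with the repeat. The DRE core ATCGAT was in 6 of 250 GAGA-repeat windows (2.40%), against 17.7% of windows with neither sequence and 11.1% of all start-site windows. CGATA, the site of the insulator protein BEAF-32, which overlaps the DRE, was in 11.6% against 36.0%, and in 23.6% of start-site windows. The Motif 7 core CANCNCTA was in 2.40% against 10.2%, and in 7.65% of start-site windows. The TATA box TATAAA was in 1.20% against 11.6%, and in 15.5% of start-site windows. The housekeeping Motif 1 core GGTCACAC was in 1 of 250 windows against 3.16%. All were searched on both strands. In the replicate lists the differences were −19.6 ± 3.90 points for ATCGAT, −29.7 ± 6.17 for CGATA, −9.61 ± 2.96 for CANCNCTA and −8.58 ± 1.37 for TATAAA, each negative in all 3 lists (exact sign-flip permutation, two-sided, p = 0.25, and 0.25 adjusted over the 14 sequences searched).

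The other elements differed less. The E-box CAGCTG stood in 10.8% of GAGA-repeat windows and 10.3% of windows with neither sequence (replicate difference 1.46 ± 1.89 points). The TCT core CTTTTC stood in 10% against 8.36%. Its replicate difference was 2.46 ± 2.68 points over all peaks, positive in all 3 lists, but 0.95 ± 4.05 with mixed signs at promoters. The CA repeat CACACACA, another simple dinucleotide repeat, stood in 5.20% against 2.64%. Its replicate difference was 1.98 ± 0.44 points over all peaks and 2.85 ± 0.44 at promoters, but −2.11 ± 0.61 at distal peaks. The Initiator letters TCAGT stood in 13.2% against 16.7%, and in 31.7% of start-site windows. Their replicate difference was −3.27 ± 0.19 points over all peaks, negative in all 3 lists, but −0.99 ± 1.304 with mixed signs at promoters. GC content was higher, with a median of 51.5% in GAGA-repeat windows, against 43.6% with neither sequence and 40.6% with a DRE. The run itself counts toward this, and a window poor in A and T leaves fewer places for the elements above, a part that was not tested.

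By gene, 162 of 13968 protein-coding genes (1.16%) had a GAGA-repeat peak within 500 bp of a start site, where 29.7% had any conservative peak there. In all, 231 protein-coding genes were the nearest to at least 1 GAGA-repeat peak, and 18 were nearest to 2 or more. The gene shot had 3, and those with 2 included Ubx, Trl, ptc, brk, sqz, mam, kay, rdx and Mob2. The gene lists below were chosen with results of these data known, and small numbers are given as counts without a test. A list need not hold every gene of its kind. Of the 4153 protein-coding genes with a conservative promoter peak, 162 (3.90%) had a GAGA-repeat one. That share is the comparison for every list.

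Genes of the factors that bind or work at GAGA repeats were represented by Trl itself. Of 19 listed genes, 9 had a conservative promoter peak and 2 a GAGA-repeat peak at the promoter, Trl and ttk, the gene of the Tramtrack repressor. The Trl promoter window held a run of 19 bases, its peak had a conservative signal of 170, and it was in the lists of replicates 1 and 3. A stronger promoter peak of Trl, of 345, did not hold the repeat. A second GAGA-repeat peak lay 781 bp downstream of a Trl start, in an intron, with a signal of 300 and ranks of 1212, 2252 and 1209 in the 3 replicates. Within 5 kb psq, the Pipsqueak gene, had 1 such peak. The gene lolal had a promoter peak without the repeat, and no conservative peak lay within 5 kb of Clamp.

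At Hox genes, the conservative promoter peaks held the repeat, but the counts are small. Of 8 genes, 2 had a conservative promoter peak, Ubx and abd-A, and both were GAGA-repeat peaks. The share among all protein-coding genes with a promoter peak was 3.90%. At Ubx the promoter peak, 98 bp upstream of the start, had a signal of 302 and ranks of 1679, 1688 and 1493 in the 3 replicates. At abd-A, 150 bp upstream, the signal was 327 and the ranks were 1306, 1739 and 1495. These ranks are of the overlapping replicate peaks, whose own summits can lie elsewhere: by those summits 1, 0 and 3 Hox genes had a GAGA-repeat promoter peak in replicates 1, 2 and 3. Abd-B, whose searched promoter also held a run of 7, had no conservative peak within 5 kb.

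The lists of patterning and signalling genes gave 1 or 2 each, to be set beside the 3.90% of all protein-coding genes with a promoter peak. Those lists are incomplete. GAGA-repeat promoter peaks at sgg, Dad, dx and gro, with signals of 246, 204, 183 and 135, are outside these counts. They were in 3, 2, 1 and 3 replicate lists. Of 26 segment polarity, Wnt and Hedgehog genes, 13 had a promoter peak and 2 a GAGA-repeat one: ptc, the Hedgehog receptor gene, at a signal of 218, and en, a homeobox gene, at 189. Of 16 dorsal-ventral and Dpp pathway genes, 9 had a promoter peak and 2 a GAGA-repeat one: sog, for the Chordin-type Dpp antagonist, at 243 with a run of 21 bases, and brk, for a repressor of Dpp targets, at 219. Among 18 Notch and EGFR pathway genes it was fng (1 of 10 with a promoter peak), and among 13 gap and maternal genes btd (1 of 3). Among 10 genes listed as pair-rule it was Ten-m (1 of 4). That count rests on Ten-m alone, and whether Ten-m belongs in the pair-rule list was not checked. The peaks at sog, ptc and Ten-m were in all 3 replicate lists, that at brk in 1 list and that at btd in none. No conservative peak lay within 5 kb of eve or ftz.

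For the next lists the comparison is again the 3.90% of all protein-coding genes with a promoter peak. Of 24 Polycomb and trithorax group genes, 17 had a promoter peak, and Psc and skd had a GAGA-repeat one, at signals of 284 and 208. A GAGA-repeat peak away from the promoter had Su(z)2 or ph-d as its nearest gene, the former in all 3 replicate lists and the latter in none. Of 13 ecdysone response genes it was Eip75B, a nuclear receptor gene, at 249 (1 of 9). Among 28 neural fate genes the promoter ones were sqz at 334 and eya at 151 (2 of 11), and among 13 mesoderm and muscle genes how at 204 (1 of 5). At the replicates' own summits, 0 of the listed mesoderm and muscle genes had one in any replicate. Cytoskeleton genes had cher and shot (2 of 6), and ion channel and synaptic genes dlg1 and slo (2 of 5). The promoter peaks at skd, sqz and cher and the strongest at shot were in all 3 replicate lists. Those at Psc, Eip75B and dlg1 were in 2, those at how and slo in 1 and that at eya in none. Of the 14 listed axon guidance and adhesion genes with a conservative promoter peak, 0 had a GAGA-repeat one. At the replicates' own summits, though, 2, 1 and 3 of the listed genes did in replicates 1, 2 and 3. That list left out the cadherin gene kug and the integrin gene scb. Their GAGA-repeat promoter peaks, of 750 and 405, were in all 3 replicate lists.

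Heat shock genes are classic targets of GAGA factor. Of 22 listed heat shock and chaperone genes, 9 had a conservative promoter peak and 1, Hsp27, a GAGA-repeat one, with a signal of 161, found in replicate 3 alone. The list left out the co-chaperone gene Roe1, whose GAGA-repeat promoter peak of 592 was in all 3 replicate lists. Over all protein-coding genes with a promoter peak the share with a GAGA-repeat one was 3.90%. At the replicates' own summits 1, 0 and 3 of the listed genes had one in replicates 1, 2 and 3. Hsp26 had a promoter peak of 174 without the repeat in its window, though its searched promoter held a run of 9. All 6 Hsp70 copies held a run of 7 in the searched promoter and none had a promoter peak; these copies are near-identical in sequence, so reads from them may not be assigned to 1 copy. Act5C had a promoter peak of 174 and no GAGA-repeat peak.

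In the housekeeping lists, the GAGA-repeat count at promoters was 0 of the 50 cytoplasmic ribosomal protein genes with a promoter peak, 0 of 45 mitochondrial ribosomal protein genes, 0 of 26 proteasome subunit genes and 0 of 11 insulator protein genes. Over all protein-coding genes with a promoter peak, the counts were 162 of 4153 (3.90%), so lists of this size would hold few at that share and each 0 is near it. The replicate lists gave 0 for these lists too.

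Fewer of the promoters with a repeat than of those with a DRE had a peak. Among protein-coding genes with the repeat and no DRE between 250 bp upstream and 50 bp downstream of a start site, 414 of 1175 (35.2%, Wilson 32.6 to 38.01) had a conservative promoter peak, against 2586 of 11374 (22.7%) with neither sequence. With a full DRE, 1153 of 1419 did (81.3%). In replicates 1, 2 and 3 the shares were 21.3%, 20.8% and 34.8% with the repeat, against 15.1%, 16.1% and 21.6% without (difference 8.03 ± 4.56 points, SD, n = 3, exact sign-flip permutation, two-sided, p = 0.25). Among genes with a single start site, a split chosen after the data were seen, the shares were 11.8%, 11.6% and 20.04% with the repeat, against 13.04%, 14.0% and 18.4% without. That difference was −0.68 ± 2.05 points with mixed signs (p = 0.75 by the same exact permutation). By run length, in the conservative list, 22.4% of genes with a run of 5, 32.9% with 7, 44.3% with 9 to 13 and 28.7% with 15 or more had a promoter peak.

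**Figure D5:**
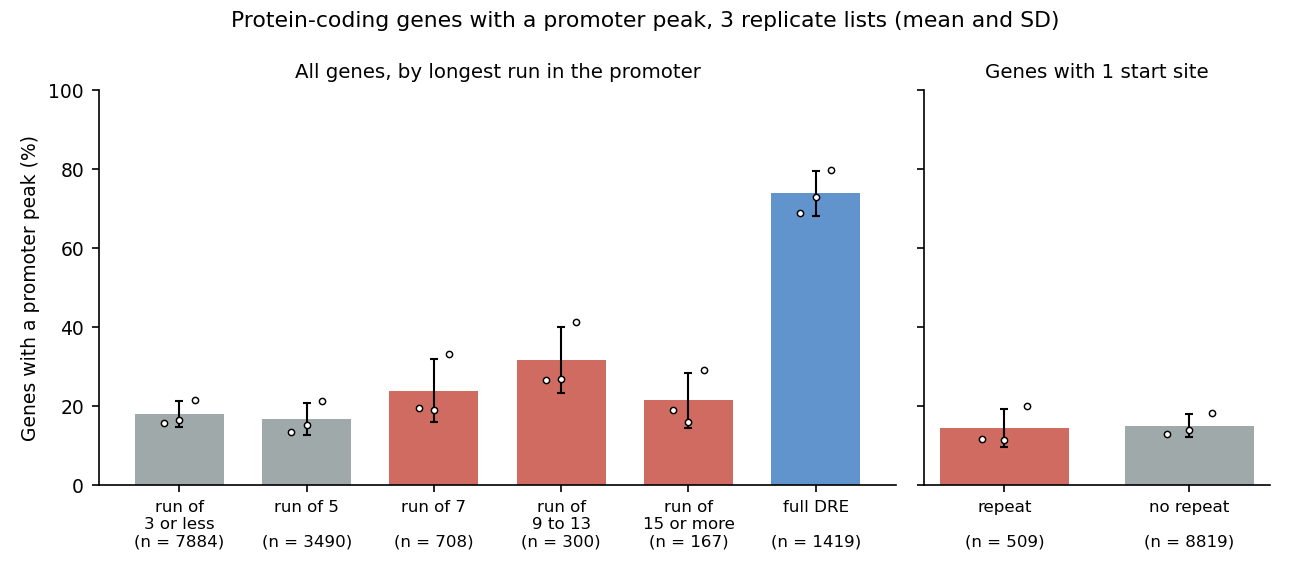
Protein-coding genes with a promoter peak (%) by the longest alternating run in the promoter or a full DRE (left), and among genes with 1 start site by presence of the repeat (right); bars are means over the 3 replicate lists, error bars SD, points single replicates. The DRE bar stands far above all run classes, and in genes with 1 start site the bars with and without the repeat differ by less than the SD over replicates.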

How the data were processed

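Peak lists of 3 libraries and of the series were used as the authors deposited them, on dm6 and filtered by irreproducible discovery rate (IDR), per the labels' descriptions. Which aligner, peak caller and IDR version made them is not given in the sources used here. Each peak's deposited score is at most 1000, and at least 830 in thresholded lists. The deposited signal has no stated scale, so it was compared only within a list, as rank or percentile. No read counts came with the peaks, so depth is unknown. A control experiment named in the labels was not analysed here. Of the 4395 conservative peaks, 2 on unplaced sequence were left out.

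Sequence came from the RefSeq Release 6 genome and start sites from Ensembl release 115. Replicate lists were classified at their own summits. Differences were tested with the exact sign-flip permutation over replicates, two-sided and unadjusted except over the sequences searched. The p-values rest on these 3 libraries only. With 3 lists this test gives 0.25 whenever all differences share a sign, whatever their spread. Scripts used Python 3.11.15, numpy 2.4.6, pandas 2.3.3 and scipy 1.17.1, and the classification and overlap steps were tested on simulated data. Regions named are the 15 strongest, the 8 strongest distal, the 8 longest runs, up to 4 per gene list, the 5 strongest in no replicate list, the 5 strongest at non-coding start sites and a set of known GAGA factor targets, by nearest protein-coding gene. The members and lists were chosen with earlier results of these data known. Alternatives changed the run length, window, list, promoter distance and overlap, and left out each replicate.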

Additional observations from a re-analysis of the deposited data

How the results depend on the processing

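Of 126 alternative values, 93 kept their direction and any spread set for them, 30 moved beyond it and 3 changed sign. The share of peaks with the repeat was 17.1% with 5 bases, 2.25% with 9, 3.28% with windows of 25 bp to either side of the summit, 10.3% with 100 bp and 3.46% in the upper 50% by signal. The promoter share was 72.6% with 5 bases, 59.6% with 9, 68.3% in the wide windows, 70.8% in series list c, 67.1% in the upper 50% by signal, 57.6% within 250 bp and 76.4% within 1000 bp. The median summit position was −68 bp with 5 bases, −96 with 9, −90.5 in the narrow windows, −82 in the wide ones, −88 in series list a, −88 in the upper 50% by signal, −82.5 within 250 bp and −81 within 1000 bp. The divergent share was 14.6% with 5 bases, 1.79% with 9, 5.52% in series list a, 0% in the upper 50% by signal, 5.38% within 250 bp and 13.6% within 1000 bp. In the upper 50% by signal, the share in all 3 lists was 59.2% and the median percentile, taken anew within that part, 24.1. With each replicate left out in turn, the share in all remaining lists ran from 25.6 to 38.8%, the promoter difference from −21.8 to −20.3 points and the signal difference from −15.5 to −7.70 points. Under the other settings the promoter difference ran from −28.6 (within 250 bp) to −14.2 (5 bases). The signal difference was −2.75 in series list a and −5.96 in list b, each a single list. It was −21.9 in the upper 50% by signal, with percentiles taken anew within that part. The differences that changed sign came from splits chosen after seeing the data: 1.23 points for signal percentile and 6.65 points for recovery among distal peaks, and −0.68 points for genes with 1 start site; the cause was not tested. No paired analysis was possible because the study has a single group, so no block between groups could be fitted; differences between peak kinds were taken within each replicate list. Unknown depth limits recovery, and whole embryos limit any statement on tissue.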

Other observations

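By chromosome, GAGA-repeat peaks numbered 31 on 2L, 60 on 2R, 57 on 3L, 61 on 3R and 41 on X. Chromosome 4 had 0 of 250 (Wilson 0 to 1.51%), against 0.51% of peaks with neither sequence, a difference not detectable with this number of peaks. On 2L this was 12.4% (Wilson 8.87 to 17.1), against 18.6% of peaks with neither sequence. On X it was 16.4% in the conservative list against 15.6%, but 15.3%, 12.1% and 12.02% in replicates 1, 2 and 3 against 16.2%, 17.5% and 15.9%.

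At non-coding genes, the strongest GAGA-repeat peaks after the one at lncRNA:CR46110 stood at tRNA:Ile-TAT-1-1, with a signal of 317 and recovery in all 3 lists, and at asRNA:bsAS, with 221 and recovery in replicates 2 and 3. Among the longest runs, the peaks nearest to fry, crol and CG16721, with 25, 23 and 23 bases, were distal and intronic, with signals of 177, 196 and 139, and were found in 1, 2 and 0 replicate lists.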
